A study of Xenopus laevis with 3 samples.

Results

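The miR-9 family was described in microRNA counts from scalpel-dissected neuronal tissue of the accessory olfactory bulb, which receives vomeronasal input, of Xenopus laevis larvae. Its members were chosen by name, as the Xenopus entries called miR-9 with any letter and arm suffix, and all of them were X. tropicalis entries (prefix xtr). The rule found 5 of the 178 Xenopus entries, in a table of 1272 mature microRNA entries of many species. They are xtr-miR-9-5p, xtr-miR-9a-5p and xtr-miR-9b-5p from the 5p arm of the precursor hairpin, and xtr-miR-9a-3p and xtr-miR-9b-3p from the 3p arm. The first 2 had the same count in every library and were counted once as miR-9-5p, so that the 5 entries gave 4 sets of counts. The larvae were at stage 45, 15 days old, and had been raised under orphan, non-sibling or sibling rearing. There was 1 library for each condition, called orphan, non-sibling and sibling here. The labels speak of 15 larvae, which may be the number per condition or the total, and give no genotype, agent or further detail of the rearing. With 1 library for each condition no difference could be checked over replicates and none has a p-value: what is compared is libraries, not conditions.

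miR-9 is a microRNA of the nervous system whose 5p sequence is conserved across bilaterian animals. In vertebrate embryos it acts in neural progenitors and young neurons, where it limits progenitor renewal and tunes the timing of neurogenesis, in Xenopus through hairy1, a repressor of the Hes family. Both arms of the hairpin can be loaded into silencing complexes: in human cells the 5p arm acts on REST and the 3p arm on its partner CoREST, both repressors of neuronal genes. A microRNA recognises its targets mainly by its seed, bases 2 to 8 counted from the 5′ end, so the arms of 1 hairpin address different targets.

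The 5 mature sequences, as the deposited table gives them, are shown because the arms and the miR-9a and miR-9b forms are told apart by them alone, and capitals mark the seed.
xtr-miR-9-5p: uCUUUGGUuaucuagcuguaug
xtr-miR-9a-5p: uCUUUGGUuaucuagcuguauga
xtr-miR-9b-5p: uCUUUGGUuaccuagcuguauga
xtr-miR-9a-3p: uAAAGCUAgauaaccgaaagu
xtr-miR-9b-3p: uAAAGCUAgacaaccgaacgu
The 3 entries of the 5p arm share the seed CUUUGGU and the 2 entries of the 3p arm share the seed AAAGCUA. No other Xenopus entry in the table had either seed. miR-9a-5p is miR-9-5p with 1 more base at its end. miR-9b-5p differs from miR-9a-5p by U11C (first the miR-9a base, then the position from 1 at the 5′ end, then the miR-9b base), and miR-9b-3p differs from miR-9a-3p by U11C and A19C, all outside the seed. When the arms of each form were paired in silico, the miR-9a arms gave an unbroken helix of 15 base pairs between bases 3 to 17 of the 5p arm and bases 4 to 18 of the 3p arm, at -22.8 kcal/mol. Between the same ends the miR-9b arms gave 13 base pairs, at -15.9 kcal/mol, with bases 10 and 11 of both arms unpaired. These are energies of the mature sequences alone, since the precursors were not analysed here.

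The libraries differed widely in depth, with totals over all 1272 entries of 22538325 counts for orphan, 5188106 for non-sibling and 865654 for sibling. These totals take in like counts again under entries of like sequence, so they are not numbers of reads. Over the Xenopus entries, which also repeat some counts, the totals were 4498417, 1035798 and 185455 in the same order. A level below is given as scaled CPM, CPM after scaling by trimmed means of M values (TMM), per mature entry and not per length. Its base is the total over all entries, not a number of reads. A single count stood for 0.0460 scaled CPM in the orphan, 0.152 in the non-sibling and 1.41 in the sibling library. Intervals are exact 95% intervals, which cover counting error only, since each condition has 1 library. Amplified copies of 1 molecule cannot be recognised without molecular identifiers, so the intervals may be too narrow even for counting error. In tissue samples fewer cells of a type and less RNA per cell cannot be told apart. All 7 distinct Xenopus sequences of the neuron marker list, miR-124 and miR-128 among them, were detected in each library, with a summed level of 2307 scaled CPM in the orphan, 2256 in the non-sibling and 1494 in the sibling library. miR-128 alone stood at 1788, 1610 and 1015 scaled CPM in the same order. The neuron sums thus mostly follow miR-128, and their ratios need not hold for the other neuron markers. Markers of other tissues were detected too: those of sensory organs (miR-96, miR-182 and miR-183) summed to 52485, 29539 and 34184 scaled CPM, and those of lens, retina and choroid plexus to 19399, 10441 and 23285, in the same order. Of the 11 other marker lists, the sibling library was the lowest, as it was for miR-9, in those of erythrocytes (18.4, 33.0 and 8.48 scaled CPM) and oligodendrocytes (2.94, 1.98 and 1.41). The sibling value of the oligodendrocyte list is that of 1 count, under the floor of 3 counts (4.24 scaled CPM), so its place as the lowest is not resolved. The sibling sum of the erythrocyte list, 8.48, also rests on few counts, at 1.41 scaled CPM per count. The other 9 lists did not have their lowest sum there under TMM. They also cover the Hox-cluster microRNAs of hindbrain and trunk, ciliated cells, epidermis, gut, muscle, leukocytes and vessels. This depends on the scaling. As a share of Xenopus counts, the sibling library was lowest for sensory organs (25.4%, 18.8% and 13.0%). The same held for muscle (2.28%, 1.78% and 1.71%) and vessels (1.53%, 1.86% and 1.19%), but not for the rest of the 9.

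miR-9-5p was by far the most abundant form, followed by miR-9b-5p, miR-9b-3p and miR-9a-3p, in this order in each of the 3 libraries. For miR-9-5p, whose targets are the best studied of the family, 140904 counts were found in the orphan, 55216 in the non-sibling and 2849 in the sibling library. This is a level of 6475 scaled CPM (6441 to 6509) in the orphan, 8396 (8326 to 8466) in the non-sibling and 4028 (3881 to 4179) in the sibling library. It ranked 8th, 4th and 14th among the 178 Xenopus entries of those libraries, and held 3.13%, 5.33% and 1.54% of their Xenopus counts. These ranks and shares are over all 178 entries, with miR-9a-5p and other entries of equal counts left in. The shares are thus lower than they would be with each set of counts taken once. The non-sibling library was the highest and the sibling library the lowest, and the 3 intervals did not overlap.

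For miR-9b-5p, which shares its seed with miR-9-5p, the counts were 9399 in the orphan, 2116 in the non-sibling and 123 in the sibling library, or 432 (423 to 441), 322 (308 to 336) and 174 (145 to 207) scaled CPM. Here the orphan library was the highest. miR-9b-3p, the opposite arm of the same hairpin, had 3353, 629 and 33 counts in the orphan, non-sibling and sibling libraries, or 154 (149 to 159), 95.6 (88.3 to 103) and 46.7 (32.1 to 65.5) scaled CPM. It fell into the same order as miR-9b-5p. For miR-9a-3p, by its name the opposite arm of miR-9a-5p, the counts were 1015, 383 and 13 in the orphan, non-sibling and sibling libraries, or 46.6 (43.8 to 49.6), 58.2 (52.6 to 64.4) and 18.4 (9.79 to 31.4) scaled CPM. It was highest in the non-sibling library, as miR-9-5p was, and its sibling value rests on 13 counts. In each library neighbours in the order of levels had intervals that did not overlap, by the smallest margin between miR-9b-3p and miR-9a-3p in the sibling library.

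**Figure D1:**
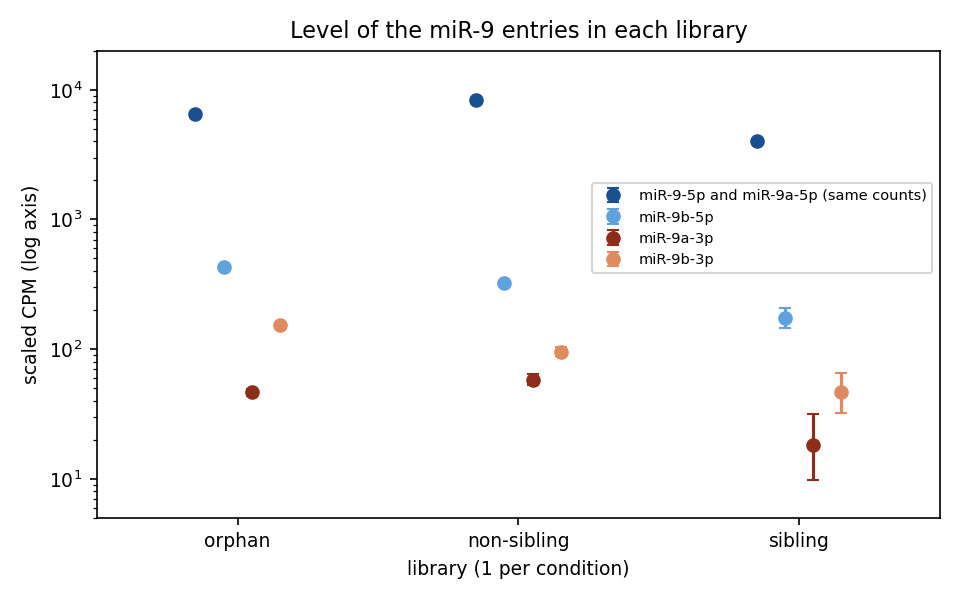
Level of each set of miR-9 counts (scaled CPM, log axis) in the orphan, non-sibling and sibling libraries; points are single libraries and bars exact 95% counting intervals. miR-9-5p lies between 4028 and 8396 scaled CPM and the 3p forms between 18.4 and 154, and the forms of miR-9a are highest in the non-sibling and those of miR-9b in the orphan library.

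Comparing the orphan with the sibling library sets orphan rearing against sibling rearing, in a study of how rearing company and microRNAs bear on neurotransmitter identity and social preference. All forms of miR-9 were higher in the orphan library. miR-9b-3p stood at 3.30 times the sibling level (2.35 to 4.81), miR-9a-3p at 2.54 times (1.48 to 4.78) and miR-9b-5p at 2.48 times (2.08 to 2.99). The ratio of miR-9-5p was smaller, at 1.61 (1.55 to 1.67). To be called higher, an entry needed a ratio of 2 or more, and to be called lower 0.5 or less, with 1 outside its interval. By this rule 3 of the 4 sets of counts were higher and 1 was neither, where 24.6% of the 866 entries with at least 30 counts over the 3 libraries were called and 9.12% were called higher (15.5% lower). Of the 156 distinct Xenopus sequences among them 23.1% were called, 8.97% higher and 14.1% lower. All 5 miR-9 entries passed that minimum and are part of these shares, here and below, with miR-9-5p and miR-9a-5p counted separately. The 4 counts added together, 154671 against 3018, gave a family level of 7108 scaled CPM for orphan and 4267 for sibling, a 1.67-fold difference (1.61 to 1.73). The sum of the neuron markers, mostly miR-128, moved in the same direction, with an orphan level 1.54 times the sibling level. The part of the neuron markers in the result was not tested.

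Comparing the non-sibling with the sibling library sets non-sibling rearing against the same library. Again all forms were higher, here with miR-9a-3p first at 3.17 times the sibling level (1.83 to 6.01). The ratio was 2.08 for miR-9-5p (2.01 to 2.17), and miR-9b-3p stood at 2.05 times (1.44 to 3.005) and miR-9b-5p at 1.85 times (1.54 to 2.24). Of the 4 sets of counts 3 were called higher and 1 neither, where 23.3% of the entries were called and 11.2% were called higher (12.1% lower). Of the distinct Xenopus sequences 24.4% were called, 14.1% higher and 10.3% lower. The ratios of miR-9-5p and miR-9b-3p lay just above the 2-fold size and that of miR-9b-5p just below it, and the 3 intervals overlap. This place near the 2-fold size depends on the scaling: under total counts the log2 ratio was 1.69 for miR-9-5p, 1.65 for miR-9b-3p, 1.52 for miR-9b-5p and 1.69 for the family, where TMM gave 1.06 for the family. The family level was 8872 scaled CPM for non-sibling and 4267 for sibling, a 2.08-fold difference (2.004 to 2.16). The sum of the neuron markers, mostly miR-128, stood at 1.51 times the sibling level, and the part of the neuron markers in the result was not tested. These comparisons share the sibling library, so that they are not separate evidence of a low sibling value.

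Between the orphan and the non-sibling library, the deeper pair, the family divided by form. Both forms of miR-9a were lower in the orphan library, miR-9-5p at 0.771 times the non-sibling level (0.764 to 0.779) and miR-9a-3p at 0.801 times (0.711 to 0.903). Both arms of miR-9b were higher, miR-9b-5p at 1.34 times (1.28 to 1.41) and miR-9b-3p at 1.61 times (1.48 to 1.76). None of these 4 ratios reached the 2-fold size, so none was called, where 20.1% of the entries were called (7.51% higher, 12.6% lower) and 21.8% of the distinct Xenopus sequences (8.97% higher, 12.8% lower). None of the 4 intervals included 1 under TMM. Under scaling by total counts miR-9b-5p was nearly level, with a log2 ratio of 0.03 against 0.42 under TMM. For miR-9a-3p the log2 ratio was -0.16 under the upper quartile, against -0.32 under TMM and -0.71 under total counts. The median over the entries of all species for an arm had a log2 ratio of -0.37 on the 5p arm and -0.32 on the 3p arm. Most of these entries are forms of miR-9a, so the median does not measure miR-9b. The summed neuron markers were at 1.02 times the non-sibling level.

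**Figure D2:**
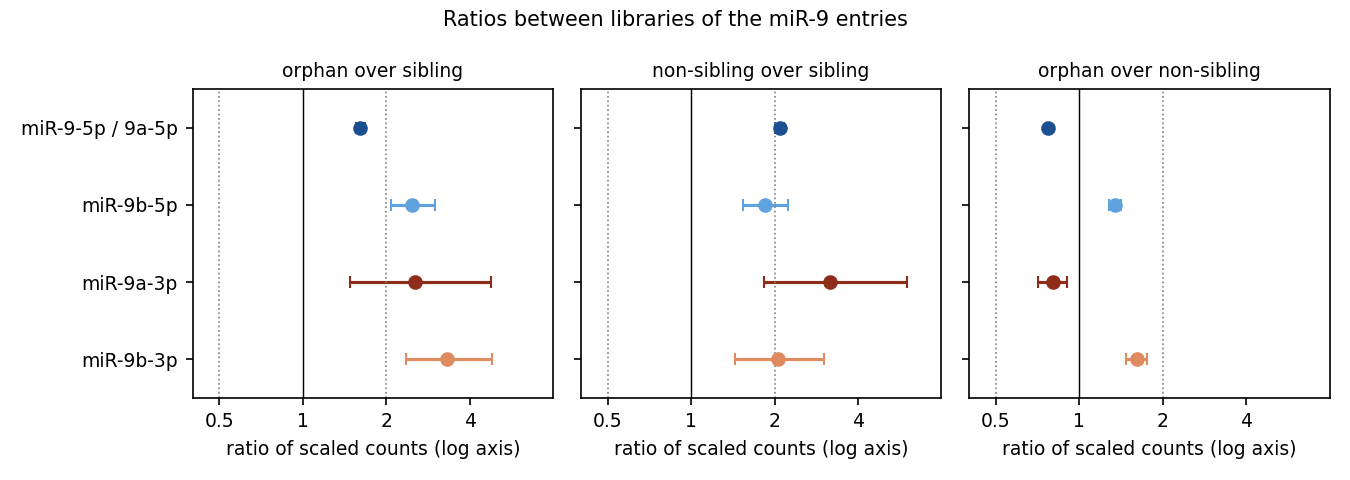
Ratio of scaled counts (log axis) of each set of miR-9 counts in orphan over sibling, non-sibling over sibling and orphan over non-sibling; points are ratios of 2 libraries, bars exact 95% counting intervals, and dotted lines the 2-fold size. All points lie above 1 in the first 2 panels, and in the third the miR-9a forms (0.771 and 0.801) and the miR-9b forms (1.34 and 1.61) lie on different sides of 1.

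The authors' deposited table compares quantile-normalized counts on a log2 scale after an offset. For miR-9-5p the authors' deposited table gives 2.03 with non-sibling over sibling, and -1.21 in a column that runs with sibling over orphan. With non-sibling on top and orphan below, the authors' deposited table gives 0.82 for miR-9-5p, 0.23 for miR-9a-3p, -0.37 for miR-9b-5p and -0.84 for miR-9b-3p. The sign thus divided the forms of miR-9a and miR-9b there as well, but these values come from the same counts and are not separate evidence.

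Within a library the arms can be compared without any scaling. The 5p arm had more counts than the 3p arm for both miR-9a and miR-9b, but by very different margins. miR-9b-5p differs by 1 base from the far more abundant miR-9a-5p, which is counted here as miR-9-5p. Whether reads of that form entered the count of miR-9b-5p was not tested, so the 5p margin of miR-9b is that of the counts alone. For miR-9a there were 139 counts of the 5p arm per count of the 3p arm in the orphan library, 144 in the non-sibling and 219 in the sibling library. For miR-9b there were 2.80, 3.36 and 3.73 in the orphan, non-sibling and sibling libraries. The miR-9a arm ratio was 49.5 times that of miR-9b in the orphan library (46.0 to 53.3), 42.9 times in the non-sibling library (37.4 to 49.1) and 58.8 times in the sibling library (29.1 to 124). The 3p arm thus made up 0.715% of all miR-9a counts for orphan (0.672 to 0.760%), 0.689% in the non-sibling (0.622 to 0.761%) and 0.454% in the sibling library (0.242 to 0.775%). Of the miR-9b counts it made up 26.3% (25.5 to 27.1%), 22.9% (21.4 to 24.5%) and 21.2% (15.0 to 28.4%) in the same order. The table lists miR-9-5p and miR-9a-3p under different precursors, and how many hairpins feed each arm was not tested.

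Among the Xenopus precursor names only 1 had a larger excess of the 5p arm than miR-9a, whose arms are paired here by name. A further 12 precursor names had both arms listed and at least 30 counts in all, and in the orphan library 7 of them had more 5p and 5 more 3p counts. Only miR-182, a microRNA of sensory organs, had a higher 5p to 3p ratio than miR-9a in the orphan and non-sibling libraries, at 17777 and 7294. In the sibling library miR-182 was also above miR-9a, at 3891, among the 9 precursors with both arms counted there. The arm ratio of miR-9b was exceeded by 5 of 12 in the orphan, 4 of 12 in the non-sibling and 2 of 9 in the sibling library. For the other abundant precursors the 5p to 3p ratio was 0.00116 for miR-22 and 0.518 for miR-199a in the orphan library.

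**Figure D3:**
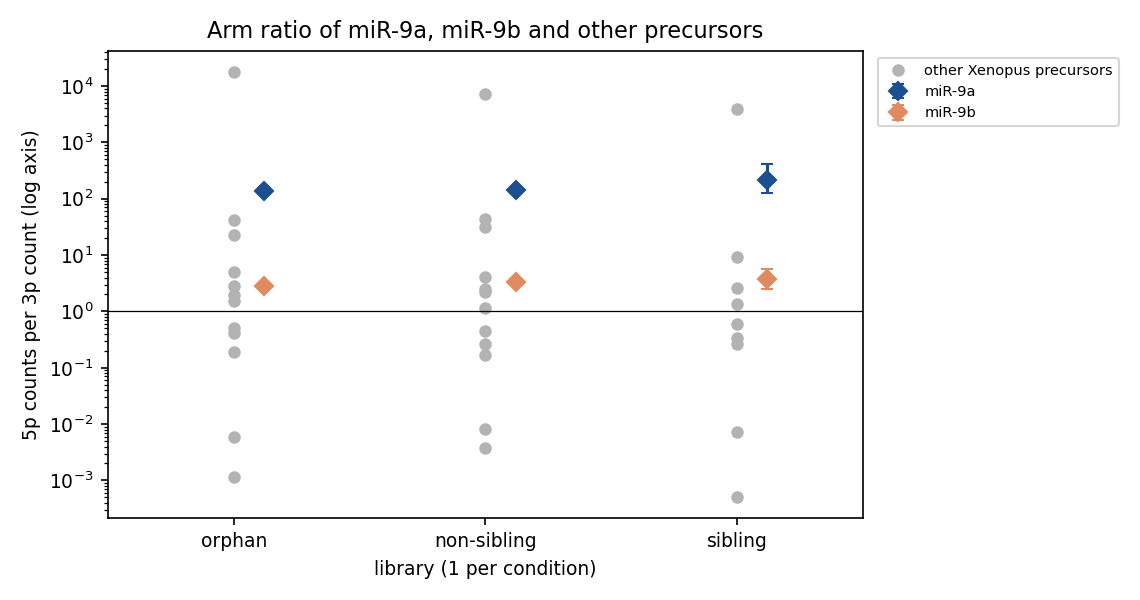
Counts of the 5p arm per count of the 3p arm (log axis) for miR-9a, miR-9b and the other Xenopus precursors in each library; diamonds carry 95% binomial counting intervals, and the line marks equal arms. miR-9a lies at 139 to 219 and miR-9b at 2.80 to 3.73; the 3 precursors with an arm at 0 in the sibling library are not drawn there.

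The change of arm ratio between libraries reached the 2-fold size for neither miR-9a nor miR-9b. Of miR-9a, the orphan ratio was 0.633 times the sibling ratio (0.336 to 1.09), the non-sibling ratio 0.658 times the sibling ratio (0.347 to 1.14), and the orphan ratio 0.963 times the non-sibling ratio (0.854 to 1.08). The same values of miR-9b were 0.752 (0.495 to 1.11), 0.903 (0.589 to 1.35) and 0.833 (0.755 to 0.919). Only the last of these 6 intervals excluded 1. The 3p arm, with fewer counts in both libraries, had a slightly larger share of the miR-9b counts in the orphan than in the non-sibling library. The intervals against the sibling library are wide, since it held 13 and 33 counts of the 3p arms. Among the other 12 precursors 3 passed the 2-fold rule in orphan over sibling (25.0%), 4 in non-sibling over sibling (33.3%) and 3 in orphan over non-sibling (25.0%). The 3 largest changes of arm ratio in orphan over sibling were those of miR-182 (4.57, interval 1.19 to 12.5), miR-18a (4.69, 2.60 to 8.63) and miR-17, which had no 3p count in the sibling library. In non-sibling over sibling they were those of miR-22 (7.37, 1.29 to 294, on 1 sibling count of its 5p arm), miR-18a (4.11, 2.16 to 7.92) and miR-17. In orphan over non-sibling they were those of miR-22 (0.306, 0.234 to 0.401), miR-182 (2.44, 1.36 to 4.21) and miR-24a (2.40, 1.52 to 3.86).

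With the arms added over miR-9a and miR-9b, the 5p arm made up 97.2% of the family in the orphan library (97.1 to 97.3%), 98.3% in the non-sibling (98.2 to 98.4%) and 98.5% in the sibling library (98.0 to 98.9%). This summed 5p to 3p ratio was lower in the orphan library, at 0.533 times the sibling ratio (0.388 to 0.714) and 0.607 times the non-sibling ratio (0.566 to 0.651). In non-sibling over sibling it was 0.877 (0.636 to 1.18). The summed ratio depends on the mix of miR-9a and miR-9b as well as on arm use within each. Within the forms, orphan over non-sibling was 0.963 for miR-9a and 0.833 for miR-9b, so the summed value is not a measure of arm use alone.

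The share of miR-9b was measured on each arm separately. On the 5p arm miR-9b made up 6.25% of all counts for orphan (6.13 to 6.38%), 3.69% in the non-sibling (3.54 to 3.85%) and 4.14% in the sibling library (3.45 to 4.92%). On the 3p arm it made up 76.8% (75.5 to 78.0%), 62.2% (59.1 to 65.2%) and 71.7% (56.5 to 84.0%) in the orphan, non-sibling and sibling libraries. The form with fewer counts on the 5p arm, miR-9b, thus had more counts on the 3p arm in each library. Set against the non-sibling library, miR-9b relative to miR-9a was 1.74 times as high in the orphan library on the 5p arm (1.66 to 1.83) and 2.01 times as high on the 3p arm (1.73 to 2.33). The value on the 3p arm reached the 2-fold size. Against the sibling library, it was 1.55 times as high in the orphan library on the 5p arm (1.29 to 1.87) and 1.30 times on the 3p arm (0.626 to 2.55). Non-sibling over sibling gave 0.888 on the 5p arm (0.737 to 1.08) and 0.647 on the 3p arm (0.309 to 1.28), with intervals that included 1.

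**Figure D4:**
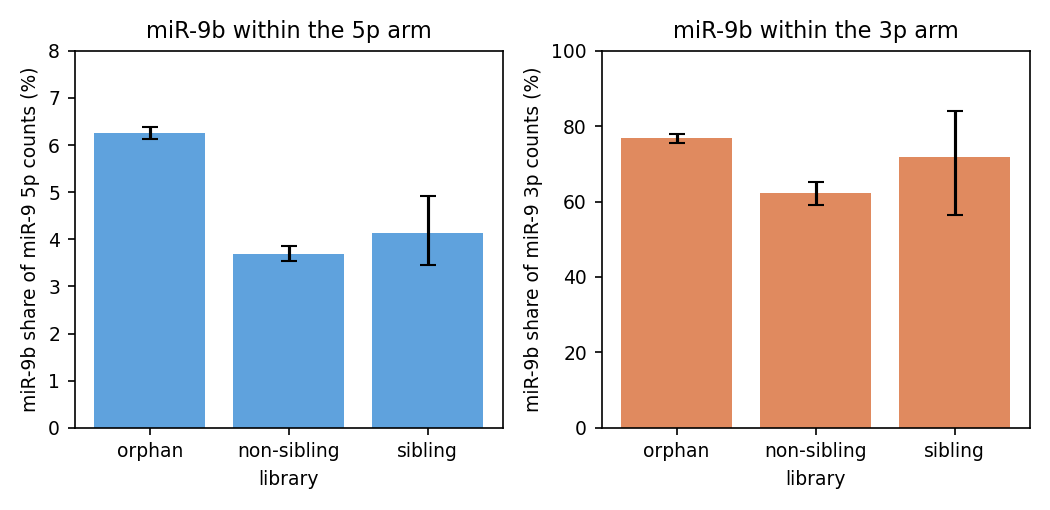
Share of miR-9b in the counts of miR-9-5p and miR-9b-5p (left) and of miR-9a-3p and miR-9b-3p (right) in each library, in percent; bars are single libraries with exact 95% binomial counting intervals, on axes of different range. The orphan library has the highest share on both arms, 6.25% and 76.8%, and the non-sibling library the lowest, 3.69% and 62.2%.

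The table also lists 15 entries of other species named miR-9 with any letter and arm suffix. Some have the sequence of a Xenopus entry, so that their counts are not separate measurements. Entries with a locus number in the name were left out of these 15 and of the values over entries of all species for an arm. Such an entry is aca-miR-9-1-3p, with 1015, 383 and 13 counts in the orphan, non-sibling and sibling libraries. The 2 of these 15 with the most counts on the 5p arm have the sequences of xtr-miR-9a-5p (lgi-miR-9) and xtr-miR-9-5p (ppc-miR-9), and held 103% of its count in the orphan, 102% in the non-sibling and 102% in the sibling library. An entry of identical sequence was thus not given an identical count. On the 3p arm dre-miR-9-3p has the sequence of xtr-miR-9a-3p and held 1018, 385 and 13 counts in the orphan, non-sibling and sibling libraries. The entry ccr-miR-9-5p is named for the 5p arm, but its sequence is that of the 3p arm with 1 more base, and it held 1018, 383 and 13 counts. The 5 entries of other species named next were singled out after their values were seen. hsa-miR-9-3p begins 1 base before xtr-miR-9a-3p and so has another seed, yet held the same 1015, 383 and 13 counts, and these counts do not tell where the reads began. Over the bases compared, both hme-miR-9b and sme-miR-9a-5p differ from the Xenopus sequence by A10U (the Xenopus base first). sme-miR-9a-5p is also longer, with 24 bases against 23 in xtr-miR-9a-5p. hme-miR-9b and sme-miR-9a-5p each held 17, 3 and 1 counts, at most 0.0351% of miR-9-5p. bma-miR-9 is miR-9a-5p from base 2 on, and held 3.74% of the count of miR-9-5p in the orphan, 4.07% in the non-sibling and 6.04% in the sibling library. egr-miR-9 differs from miR-9-5p by A20G, outside the seed, and held 3408, 2830 and 165 counts, or 2.42%, 5.13% and 5.79% of miR-9-5p. Its share was thus 0.472 times as high in the orphan as in the non-sibling library (0.448 to 0.497), and 0.418 times as high as in the sibling library (0.355 to 0.493). For comparison, miR-9b-5p, which also differs from miR-9a-5p by 1 base, held 9399, 2116 and 123 counts. The egr-miR-9 count was below it in the orphan and above it in the non-sibling and sibling libraries. How the reads of bma-miR-9 and egr-miR-9 arose was not tested, nor whether reads of miR-9-5p entered the count of miR-9b-5p.

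Other microRNAs of neural tissue were described by lists chosen by function. Of 10 Xenopus entries of neuron microRNAs, which mark neurons or follow their activity, 8 were not called and 2 were higher in orphan over sibling, where 8.97% of the distinct Xenopus sequences were higher. Their median log2 ratio was 0.55, against 0.12 for the 156 distinct Xenopus sequences and 0.06 for the 866 entries of all species. The lists count entries, whereas the Xenopus shares and medians count identical sequences once. In non-sibling over sibling 8 were again not called and 2 higher, where 14.1% of the Xenopus sequences were higher. The median was 0.57, against 0.10 for Xenopus sequences and -0.03 for the entries of all species. In orphan over non-sibling 9 were not called and 1 was higher, where 8.97% of the Xenopus sequences were higher. The median was 0.08, against 0.04 for Xenopus sequences and 0.02 for the entries of all species. It turned to -0.31 under total-count scaling and to -0.06 with TMM over Xenopus entries. miR-138, a microRNA of dendritic spines in rat neurons, was at 2.64 times the sibling level in the orphan library (2.02 to 3.53) and 3.19 times in the non-sibling library (2.43 to 4.26). miR-128, of differentiated neurons, was at 1.76 times (1.64 to 1.90) and 1.59 times (1.47 to 1.71), and miR-132, induced by neuronal activity, at 1.29 times (1.06 to 1.58) and 1.64 times (1.35 to 2.02), for the same libraries over sibling.

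Of the 26 Xenopus entries of the list for neural progenitors and cell division (the miR-17, miR-92, miR-130, miR-302 and miR-427 groups among them), 25 had enough counts. In orphan over sibling none was higher, 4 were lower and 21 neither. The share of lower entries was near the 14.1% of Xenopus sequences and 15.5% of all entries, with a median of 0.17 (Xenopus sequences 0.12). In non-sibling over sibling 2 were higher, 5 lower and 18 neither, where 14.1% of Xenopus sequences were higher and 10.3% lower. The 2 higher entries, xla-miR-20 and xtr-miR-20b, held the same counts and are not separate results. The median was 0.15 (Xenopus sequences 0.10). In orphan over non-sibling 2 were higher and 23 neither, where 8.97% of Xenopus sequences were higher. The median of -0.01 (Xenopus sequences 0.04) ranged with the scaling between -0.40 under total counts and 0.15 under the upper quartile. The most abundant, miR-92a and miR-92b, stood at 0.396 times (0.389 to 0.402) and 0.0607 times (0.0600 to 0.0614) the sibling level in the orphan library, opposite to miR-9, and miR-130b at 1.83 times (1.71 to 1.97). In the list of differentiation microRNAs (let-7, miR-99, miR-100 and miR-125), 6 of 11 entries were lower and 5 neither in orphan over sibling (median -1.04), 3 lower and 8 neither in non-sibling over sibling (median -0.80), and all 11 neither in orphan over non-sibling (median 0.04, but -0.35 under total counts and -0.10 with TMM over Xenopus entries). Of the distinct Xenopus sequences 14.1%, 10.3% and 12.8% were lower in these comparisons. In this list miR-100 was at 1.52 times the sibling level in the orphan library (1.47 to 1.57), miR-125a at 0.203 times (0.199 to 0.207) and miR-125b at 0.397 times (0.374 to 0.421).

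Likeness of pattern was measured as the distance between pairs of log2 ratios, orphan over sibling and non-sibling over sibling, which share the sibling library, over 3 libraries and 125 other Xenopus entries with at least 10 counts in each. Nearest to miR-9-5p were xla-miR-20 and xtr-miR-20b, with the same counts as each other and a distance of 0.11, and then miR-103 (0.12), miR-107 (0.26) and miR-16c (0.35). miR-9a-3p lay nearest to miR-138, at a distance of 0.11, and to miR-489 (0.26). miR-9b-5p lay nearest to miR-30a-5p, at 0.15, which was also the nearest to miR-9b-3p, at 0.45. With 3 libraries many entries lie close together by this measure, and it describes only these libraries.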

How the data were processed

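MicroRNA of 3 libraries was analysed, grouped by their titles. Per the labels, frozen tissue was sectioned at 50 µm, and a RecoverAll kit was used to extract total RNA. The protocol names a kit for messenger RNA although the molecules are labelled as microRNA, so the library method is not settled. How reads were aligned, against which microRNA release or genome, is not given in the sources used here; no genome positions were analysed here. The authors deposited whole-number read counts per mature entry, a signal made from them (quantile-normalized counts) and the log2 ratio of that signal between libraries; the offset of the ratio is not stated.

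From the deposited counts, effective library sizes were computed by TMM over entries with at least 30 counts in all (edgeR 4.0.16 in R 4.3.3), with factors 0.966 for orphan, 1.27 for non-sibling and 0.817 for sibling. The ratio of scaled counts was given with its exact conditional 95% interval, and a ratio of arm ratios with the exact conditional interval of the odds ratio (scipy 1.17.1, Python 3.11.15). For log2 ratios 0.5 was added to each count. The calculation was checked on simulated Poisson counts. Arms were paired with RNAduplex of ViennaRNA 2.7.2. The 1 unnamed line of the table, which holds no read counts, was left out. Named entries were the miR-9 entries, the 2 most abundant of other species per arm and those identical in sequence, the 3 most abundant Xenopus entries per list, the precursors with the most counts or the largest change of arm ratio, and the 5 nearest in pattern. The members, lists and tests were chosen with earlier results of these data known. Alternatives were other scalings (among them DESeq2 1.42.0 size factors), filters, sizes, added counts and choices of entries.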

Additional observations from a re-analysis of the deposited data

How the results depend on the processing

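No paired analysis was possible because each condition has 1 library and the labels give no shared replicate numbers. Values in this paragraph are log2 ratios, those of arms and forms being ratios of ratios, and causes of the differences were not tested. With the authors' quantile-normalized values, miR-9-5p in orphan over sibling (1.21) and miR-9b-5p in non-sibling over sibling (1.06) passed the 2-fold size, as did the summed 5p to 3p ratio in orphan over non-sibling (-1.33) and the miR-9b-5p to miR-9-5p ratio there (1.20). In non-sibling over sibling that summed arm ratio (0.61) and the arm ratio of miR-9a (0.10) changed direction. Total counts took miR-9b-5p in non-sibling over sibling past the size (1.52). With 5 added to each count, miR-9a-3p in orphan over sibling (0.88) and miR-9b-3p in non-sibling over sibling (0.84) no longer passed. The median over the entries of all species for the arm, most of which are forms of miR-9a, is the same value for both forms of an arm. It therefore does not measure miR-9b. On the 5p arm this median was 0.68 in orphan over sibling (not past the size), 1.06 in non-sibling over sibling (past it) and -0.37 in orphan over non-sibling. On the 3p arm it was -0.32 in orphan over non-sibling. In these places it differed from the miR-9b entry in side of the size or in direction. With miR-9b-3p alone as the 3p arm, the summed arm ratio was -1.01 in orphan over sibling, 0.017 in non-sibling over sibling (reversed) and -1.02 in orphan over non-sibling. The remaining 102 level values, 21 arm values and 11 values of miR-9b against miR-9a kept direction and side of the 2-fold size. The arm values include those summed over entries of all species, in which entries of like sequence are counted repeatedly.

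The 5p share of the family was 97.8% in the orphan, 98.9% in the non-sibling and 98.9% in the sibling library with the larger 3p entry alone, and 99.0%, 99.2% and 99.4% over entries of all species. The sum over all species takes in like counts again under each entry of like sequence. It depends on how many entries each arm has, so it is not a check of arm use. Quantile-normalized values gave 96.9% in the orphan, 98.7% in the non-sibling and 98.1% in the sibling library, which there lay below the non-sibling one. Entries called higher in orphan over sibling (79) numbered 126 with total counts, 50 with TMM over Xenopus entries, 201 with quantile-normalized values, 168 at 1.5-fold, 22 at 3-fold and 14 among Xenopus entries alone. Those lower (134) numbered 22 among Xenopus entries alone. The numbers among Xenopus entries here count identical sequences once. In non-sibling over sibling those higher (97) numbered 287 with total counts, 181 with quantile-normalized values, 178 at 1.5-fold, 38 at 3-fold and 22 among Xenopus entries, and those lower (105) 57, 189, 64 and 16 with total counts, at 1.5-fold, at 3-fold and among Xenopus entries. In orphan over non-sibling those higher (65) numbered 30 with total counts, 100 with the upper quartile, 143 at 1.5-fold, 30 at 3-fold and 14 among Xenopus entries, and those lower (109) 225, 223, 54 and 20 with total counts, at 1.5-fold, at 3-fold and among Xenopus entries. With precursors of all species, 16, 9 and 13 of 67 changed arm ratio in orphan over sibling, non-sibling over sibling and orphan over non-sibling, against 3, 4 and 3 of 12 of Xenopus. Total counts moved the median of all entries by 0.24, 0.63 and -0.39 log2 in these comparisons. The sibling library's depth limits the 3p forms most, at 13 and 33 counts.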
